A study of Rattus norvegicus with 8 samples.

Results

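The miR-221 and miR-222 pair was measured through the 4 mature strands that the Agilent rat miRNA array carried for it (rno-miR-221-3p, rno-miR-221-5p, rno-miR-222-3p and rno-miR-222-5p, where rno stands for rat), out of 758 rat miRNAs in all. The strands were found by name. The pair itself was chosen with the difference between the groups and the agreement of its strands already in view, so both are described below without a test. Of the 4 strands, 1 (miR-221-3p) had a detected signal on any array and entered the fit across miRNAs.

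Total RNA came from prostatic urethral tissue of male SD rats aged 10 to 12 months, a strain of laboratory rat, taken 5 days after surgery. The 4 rats of the TULP group had a simulated transurethral laser prostatectomy. Through the opened bladder, a laser vaporized the urothelium of the prostatic urethra until the wound surface began to carbonize. The 4 rats of the sham group had an abdominal incision only, without the laser step. The titles and treatment fields put the TULP samples in the trauma group, although their descriptions name sham surgery before harvest. The groups rest on the titles. The animals were normal rats without prostatic hyperplasia, and each array held the tissue of 1 animal.

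miRNAs are short RNAs that pair with messenger RNAs, mainly through a stretch near the 5′ end called the seed, and lower their translation or stability. miR-221 and miR-222 are transcribed together from a cluster on the X chromosome and are known to target Cdkn1b, which encodes the cell cycle inhibitor p27, and Kit, the receptor for stem cell factor. They are known in endothelium and in proliferating vascular smooth muscle, and in prostate cancer cell lines they lower p27.

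The RefSeq table of the GRCr8 assembly held all 4 mature strands. They are shown because the 3p strands share the seed through which the common targets are recognised, while the 5p strands do not. Capitals mark bases 2 to 8, the seed.
miR-221-3p: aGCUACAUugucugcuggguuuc
miR-222-3p: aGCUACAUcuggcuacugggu
miR-221-5p: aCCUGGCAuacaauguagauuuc
miR-222-5p: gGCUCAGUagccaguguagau
The 3p strands were identical over their first 8 bases and at 11 of 21 positions counted from the 5′ end. None of the other rat mature miRNAs in the table had this seed. On chromosome X, plus strand, the Mir222 hairpin lay at 6022621 to 6022723 and the Mir221 hairpin at 6023182 to 6023290, 458 bases apart. Both lay inside the annotated long noncoding RNA genes LOC120099382 and LOC120099384, and no other annotated miRNA lay within 10 kb.

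Each strand was read by 2 probes of 8 spots each. The probes of the 3p strands are shown because they cover different amounts of their targets. Each is written 5′ to 3′, and capitals mark the bases that pair with the seed.
miR-221-3p, longer probe: gaaacccagcagacaATGTA
miR-221-3p, shorter probe: gaaacccagcagacaATGT
miR-222-3p, longer probe: acccagtagccagA
miR-222-3p, shorter probe: acccagtagccag
The miR-221-3p probes were 20 and 19 bases long and paired with the strand from base 4 or 5 to its 3′ end. The miR-222-3p probes were 14 and 13 bases long and reached back only to base 8 or 9. The array's rat probes ran from 10 to 23 bases with a median of 16, and 461 of 1806 were no longer than 14 bases. Because the probes differ in this way, no difference in level between the strands is read from their signals.

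A probe was counted as detected when its total signal exceeded 3 times its error, both as given by the scanner software in linear intensity units. For rno-miR-221-3p the longer probe measured 4.11, 4.10, 5.10 and 4.19 on sham replicates 1 to 4. On TULP replicates 1 to 4 it measured 7.67, 8.51, 7.49 and 7.19. Every TULP array lay above every sham array on this probe, and the means were 4.38 ± 0.485 and 7.71 ± 0.565 (SD, n = 4), a ratio of 1.76. The errors of the longer probe were 1.20 to 1.37 in the sham group and 1.45 to 1.61 in the TULP group.

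The shorter miR-221-3p probe measured 2.21, 3.09, 3.84 and 2.71 on the sham arrays. It measured 4.33, 5.53, 3.88 and 3.61 on the TULP arrays. Its groups overlapped, since sham replicate 3 lay above TULP replicate 4, and the means were 2.96 ± 0.688 and 4.34 ± 0.850 (SD, n = 4), a ratio of 1.46.

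**Figure D1:**
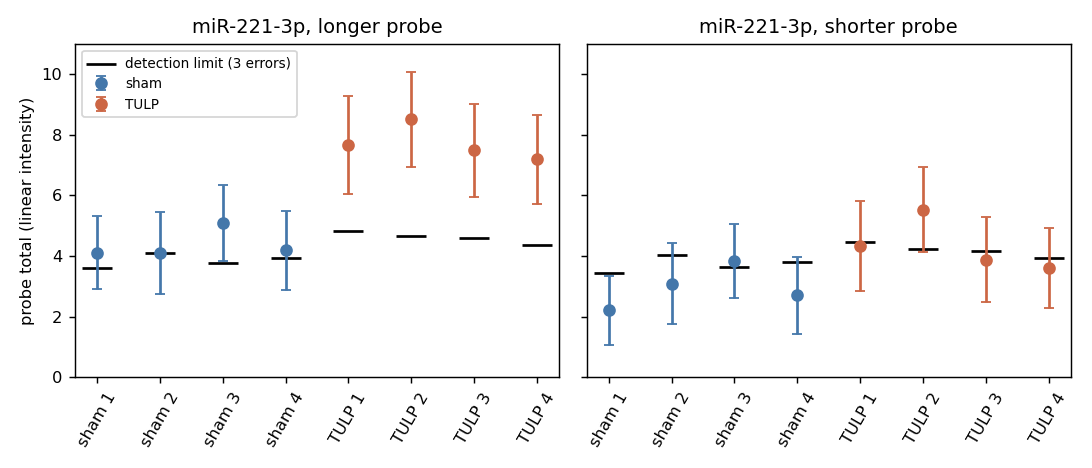
Totals of the 2 miR-221-3p probes on each array, in linear intensity units, with the scanner software's error as bars and 3 times that error as a black dash. On the longer probe the TULP arrays lie between 7.19 and 8.51 and the sham arrays between 4.10 and 5.10, next to the detection limit, while on the shorter probe 2 of the 8 arrays pass the limit.

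In the sham group the signal lay at the edge of detection. The number of probes over the limit was 1, 0, 2 and 1 on sham replicates 1 to 4, and 1, 2, 1 and 1 on the TULP arrays. On sham replicate 2 the longer probe stood at 2.9996 times its error, so miR-221-3p counted as undetected there although its total of 4.10 was close to the 4.11 and 4.19 of sham replicates 1 and 4. The shorter probe of TULP replicate 1 stood at 2.91 times its error and was likewise not counted. A stricter mark of the scanner software, spots well above background, was met by 1, 1, 2 and 0 of 16 spots on the sham arrays. On the TULP arrays it was met by 7, 10, 5 and 5 of 16.

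Without the detection rule, the 2 probe totals of miR-221-3p summed to 6.32, 7.19, 8.94 and 6.90 on the sham arrays. The sums were 12.0, 14.04, 11.4 and 10.8 on the TULP arrays. All TULP sums lay above all sham sums, with a difference of 0.72 on the log2 scale (pooled SD 0.19, n = 4 per group). Of the 151 miRNAs with a detected signal on 4 or more arrays, 7 (4.64%) had all TULP sums above all sham sums, miR-221-3p among them. This count is a description, since the miRNA was chosen by the same contrast.

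The whole-array signal also moved with the group. The summed signal of all detected miRNAs ranged from 21075 to 37357 in the sham group and from 16787 to 19464 in the TULP group, and the number of detected miRNAs from 146 to 156 and from 136 to 151. Control RNAs are spiked into each sample at a set dose before labelling, and after scaling to them the difference of the miR-221-3p sums was 0.49. It was 1.24 after scaling to the 75th percentile of the miRNAs detected on all arrays. The part of the overall signal in the difference was not tested.

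After quantile normalization, which gives every array the same set of signals, and with signals below 1.94 (0.96 on the log2 scale) set to that floor, miR-221-3p measured 1.71, 0.96, 3.09 and 0.96 on sham replicates 1 to 4. The TULP arrays measured 3.19, 4.03, 3.16 and 3.09. Sham replicate 2 was undetected, and sham replicate 4 was detected but fell under the floor, so the order of these 2 is unknown. Sham replicate 3 and TULP replicate 4 had the same value, since miR-221-3p ranked 119 among the detected miRNAs on both. The signals behind this tie were not made up alike. Sham replicate 3 had 2 probes counted (8.94) and TULP replicate 4 had 1 (7.19). The longer probe alone measured 5.10 and 7.19 on them. The 4.03 of TULP replicate 2 also came from 2 counted probes, and the other TULP values from 1. On the other arrays where miR-221-3p was detected it ranked 145 and 150 in the sham group, and 116, 92 and 117 in the TULP group.

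The group means were 1.68 ± 1.01 for sham and 3.37 ± 0.446 for TULP (SD, n = 4) on this log2 scale, a difference of 1.69 with a standard error of 0.50. In the limma fit, 46 of 151 miRNAs passed a Benjamini-Hochberg adjusted p under 0.05, in either direction. Together with a fold over 2, 14 of the 151 (9.27%) passed. With a higher level in the TULP group, 8 of the 151 (5.3%) did so. miR-221-3p was 1 of the 8. Nothing is read from this, since the contrast had chosen the miRNA. Within slide row 1 (1 sham and 3 TULP arrays) the difference was 2.499, and within row 2 (3 sham arrays and 1 TULP array) it was 1.17. With the slide row as a block it was 1.84 and miR-221-3p was not among the called miRNAs.

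The size of the difference depended on how signals near background were treated. It was 3.29 in the authors' normalized table, in which undetected signals stand far below the floor used here, and 1.12 when the floor was doubled. It was 0.12 when background was modelled with an added offset of 50. Counting probes from 2 errors upwards gave 1.06.

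**Figure D2:**
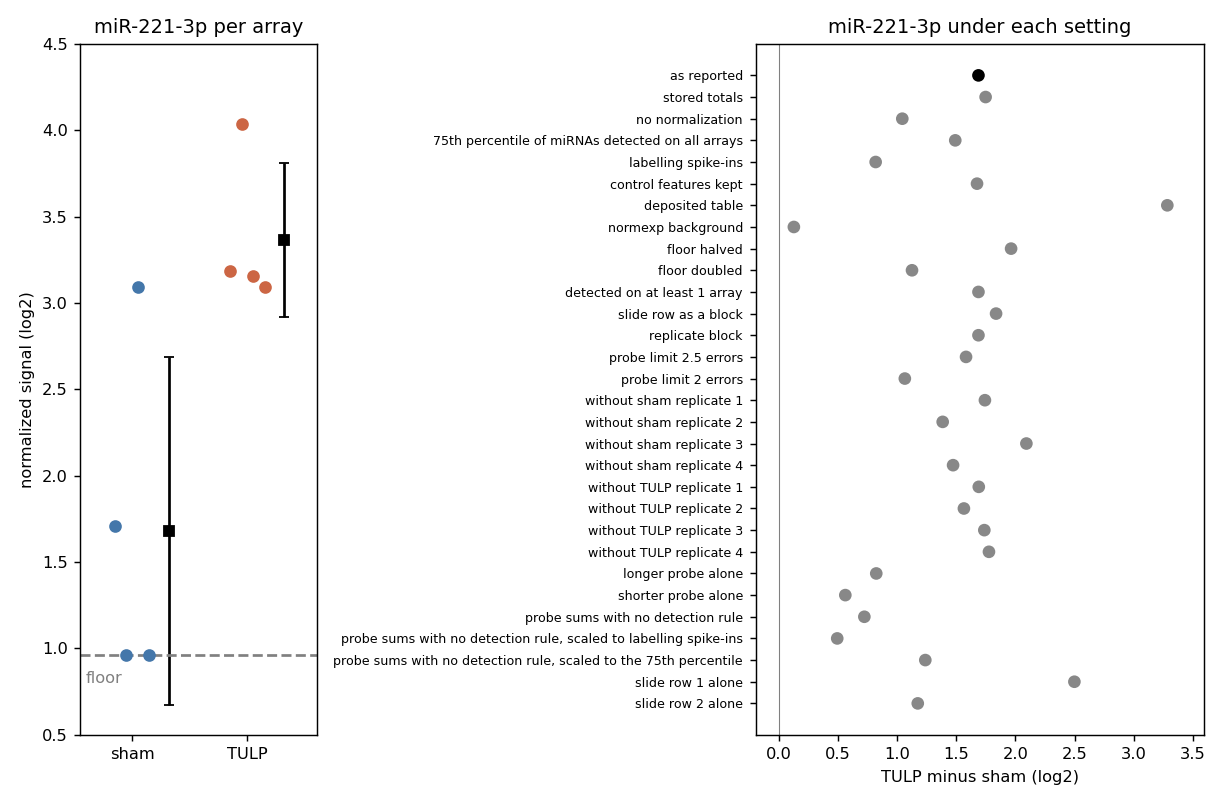
Left, the normalized log2 signal of miR-221-3p on each array, with squares and bars for the mean and SD of 4 arrays and a dashed line for the floor at 0.96. Right, its TULP minus sham difference on the log2 scale under each setting, from 0.12 with the offset background to 3.29 in the deposited table, with the reported 1.69 in black.

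rno-miR-222-3p was detected on 0 of 8 arrays, and none of its 16 spots per array was well above background. Its 2 probe totals summed to 1.39, 3.29, 2.26 and 1.59 on sham replicates 1 to 4. They summed to 3.55, 3.28, 2.64 and 3.18 on TULP replicates 1 to 4. The groups overlapped, with sham replicate 2 above 3 of the 4 TULP arrays, and no sum exceeded 1.77 times its error.

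The means of the miR-222-3p sums were 2.13 ± 0.860 and 3.16 ± 0.382 (SD, n = 4), with a pooled SD between animals of 0.665, while the scanner error of a single sum was 1.59 to 2.02. No fold is read from these sums, since both groups lay below the detection limit. Its probes did not track each other across arrays: the longer probe was brightest on TULP replicate 1 (2.64) and the shorter on TULP replicate 2 (1.76). Among the 573 miRNAs detected on no array, the mean miR-222-3p sum ranked 27 and its group difference 20. The TULP mean exceeded the sham mean for 300 of the 573 (52.4%).

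The 5p strands, the partner strands of the hairpins that are usually degraded, gave no signal. The probe sums of miR-221-5p lay between -1.59 and -0.05 in the sham group and between -0.82 and -0.50 in the TULP group. Those of miR-222-5p lay between -3.12 and -1.79 and between -2.70 and -0.92. Neither strand had a sum above 0 on any array, and neither had a spot well above background.

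**Figure D3:**
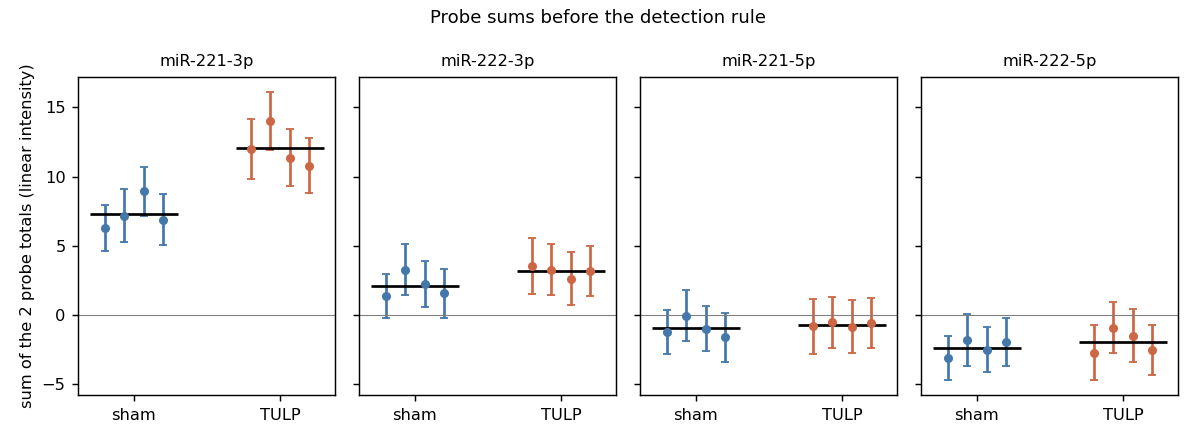
Sum of the 2 probe totals of each strand on each array, in linear intensity units, before any detection rule or normalization, with the combined error of the 2 probes as bars and group means as black lines. The groups stand apart for miR-221-3p only (6.32 to 8.94 against 10.8 to 14.04), and both 5p strands lie below 0.

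Whether the pair moved together could not be read from these arrays. The normalized values of miR-222-3p stood at the floor on all 8 arrays, so the within-array difference of miR-222-3p minus miR-221-3p shifted by -1.69 between the groups, which is the miR-221-3p difference alone. The probe sums of miR-222-3p lay below the detection limit throughout, and no shift against miR-221-3p is read from them.

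With the group means taken out, the log2 sums of the 3p strands had a Pearson r of 0.43 and a Spearman rho of 0.69 over the 8 arrays. Without TULP replicate 2 and sham replicate 3, the arrays farthest from the median of miR-221-3p, r was 0.69. The longer and shorter probes of miR-221-3p had an r of 0.87, which was 0.41 without the same 2 arrays, and those of miR-222-3p an r of -0.05, which was -0.56 without sham replicates 1 and 2. All probes of an array share its depth of signal and background, and no p is given. With miR-222-3p below its limit, no agreement of the pair is read from these values.

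Other miRNAs were compared with miR-221-3p by the likeness of their pattern. Among 121 miRNAs detected on all 8 arrays, the highest Pearson r of normalized log2 values over the 8 arrays was that of miR-322-5p (0.79), followed by miR-34a-5p (0.78), miR-223-3p (0.77), miR-21-5p (0.77) and miR-20a-5p (0.72). Their TULP minus sham differences were 0.76, 0.95, 2.10, 1.76 and 1.08 on the log2 scale. With group means taken out, another 5 led, namely miR-140-5p (0.72), miR-30e-5p (0.69), miR-301a-3p (0.61), miR-497-5p (0.60) and miR-30b-5p (0.57). Both lists hold the highest of 121 values over 8 arrays, and no p is given. The miR-221-3p values on sham replicates 2 and 4 stood at the floor, so both lists are descriptions only. For miR-222-3p no such list exists, as its normalized value did not vary.

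miR-223-3p, a miRNA of neutrophils and other myeloid cells, was among the neighbours by level, a likeness that includes the group difference. It was not among those that led with group means taken out. Of the 5 leukocyte miRNAs listed, 4 were tested and 2 were called, both higher in the TULP group, miR-223-3p by 2.10 (limma adjusted p = 0.0031) and miR-142-3p by 2.01 (limma adjusted p = 0.0163), beside 9.27% called over all tested miRNAs. Of the other 2 tested, miR-150-5p differed by -0.59 (SE 0.22) and miR-155-5p by 0.89 (SE 0.50), neither past the adjusted p. The summed normalized signal of the 5 listed ranged from 34.4 to 50.8 in the sham group and from 64.0 to 132 in the TULP group, and miR-142-5p was undetected on every array. The part of leukocytes in the miR-221-3p difference was not tested. In such bulk tissue a change in the number of cells of a type and a change in RNA per cell cannot be told apart.

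Markers of endothelium and smooth muscle, the cell types the pair is known in, were set beside these values. The endothelial miR-126a-3p differed by 0.01 (SE 0.12), and the summed signal of the endothelial list ranged from 116 to 152 and from 116 to 137, with miR-126a-5p undetected. Of the smooth muscle list, miR-143-3p and miR-145-5p were tested and 0 were called, beside 9.27% called over all tested miRNAs. The list summed to 648 to 928 in the sham group and 634 to 1315 in the TULP group. Epithelial miRNAs fitting the labelled tissue were present, with 8 of 9 tested and 0 called, beside the same 9.27%. Their median difference was -0.70 beside -0.02 over all tested miRNAs. miR-375-3p differed by -2.03 (SE 0.71) and miR-200c-3p by -1.46 (SE 0.54), neither past the adjusted p, and the summed signal of the list ranged from 496 to 681 in the sham group and from 387 to 950 in the TULP group.

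Striated muscle and erythroid markers were lower in part. All 4 striated muscle miRNAs were tested. Of these, 3 passed the adjusted p with a lower level in TULP, beside 46 of all 151 tested miRNAs in either direction. Of the 4, 0 were called, beside 9.27% over all tested miRNAs, and miR-206-3p differed by 0.25 (SE 0.45). The median of the list was -0.73, and its summed signal ranged from 4043 to 5659 in the sham group and from 2639 to 4637 in the TULP group. Of 3 erythroid miRNAs, 2 were tested, also with a median of -0.73, and miR-486 was lower (difference -0.79, limma adjusted p = 0.0498). Their summed signal ranged from 62.0 to 99.3 and from 32.5 to 79.7, and miR-144-3p was undetected on every array. The part of these cell types in the miR-221-3p difference was not tested.

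Other miRNAs known to act on the targets of the pair came next. Of 6 regulators of Kit, 3 were tested and 0 were called. Over all 151 tested miRNAs 9.27% were called, and 46 passed the adjusted p. The median difference of the Kit regulators was 0.75, beside -0.02 over all 151 tested miRNAs. miR-34a-5p, a p53-induced miRNA, was higher in TULP by 0.95 (SE 0.22, limma adjusted p = 0.0161) and miR-494-3p by 0.75 (SE 0.23, limma adjusted p = 0.0443), both past the adjusted p and under 2-fold. miR-193a-3p differed by 0.01 (SE 0.31). With scaling to the labelling spike-ins miR-34a-5p differed by 0.14 and miR-494-3p by 0.13, and without normalization by 0.37 and 0.36, none of them past the adjusted p. With the scanner software's stored totals miR-34a-5p differed by 0.60 and missed the adjusted p. The direction of miR-494-3p turned with these totals (-0.44), as did the list's median (-0.15).

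Of 6 regulators of Cdkn1b, 4 were tested and 0 were called, beside 9.27% called over all tested miRNAs. Their median difference was -0.35, beside -0.02 over all tested miRNAs. miR-181a-5p was lower in TULP by 0.61 (difference -0.61, SE 0.17, limma adjusted p = 0.0336), and was called without normalization (-1.11) and with the spike-ins (-1.33). The medians of all tested miRNAs were -0.55 and -0.78 in these settings. With the stored totals miR-181a-5p differed by 2.31 in the other direction, not past the adjusted p. miR-24-3p differed by 0.13 (SE 0.09), and miR-148a-3p and miR-148b-3p were undetected on every array.

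The miR-17 cluster and its relatives, known for promoting proliferation, had 6 of 9 members tested and 1 called, beside the 9.27% called over all tested miRNAs. miR-20a-5p rose by 1.08 (SE 0.22, limma adjusted p = 0.0124), but differed by 0.28 with scaling to the labelling spike-ins and by 0.51 without normalization, and was called in neither. miR-93-5p differed by 0.79 (SE 0.31) and miR-19b-3p by 0.62 (SE 0.27), neither past the adjusted p. The list's median was 0.59, and -0.19 with the spike-ins, where the median of all tested miRNAs was -0.78.

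Of 8 miRNAs tied to the state of smooth muscle, 7 were tested and 1 was called, beside the same 9.27% over all tested miRNAs. miR-21-5p, a miRNA induced in injured and dividing smooth muscle, rose by 1.76 (SE 0.15, limma adjusted p = 0.00078). Its quantile-normalized value was 11.5 on every TULP array (SD 0), so this SE holds no spread within that group. The miR-21-5p difference was 1.28 without normalization and 1.05 with the spike-ins, and it was called in both. miR-1-3p and miR-133a-3p, which mark contractile muscle, were lower, at -0.74 (SE 0.18, limma adjusted p = 0.0201) and -0.96 (SE 0.16, limma adjusted p = 0.00605), both under 2-fold and both also listed as striated muscle markers. Both were called without normalization (-1.51 and -1.58) and with the spike-ins (-1.74 and -1.81). The medians of all tested miRNAs were -0.55 and -0.78 in these settings. miR-133a-3p differed by -0.31 with the stored totals and missed the adjusted p. miR-143-3p differed by 0.07 (SE 0.24). The median of the list was -0.42.

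**Figure D4:**
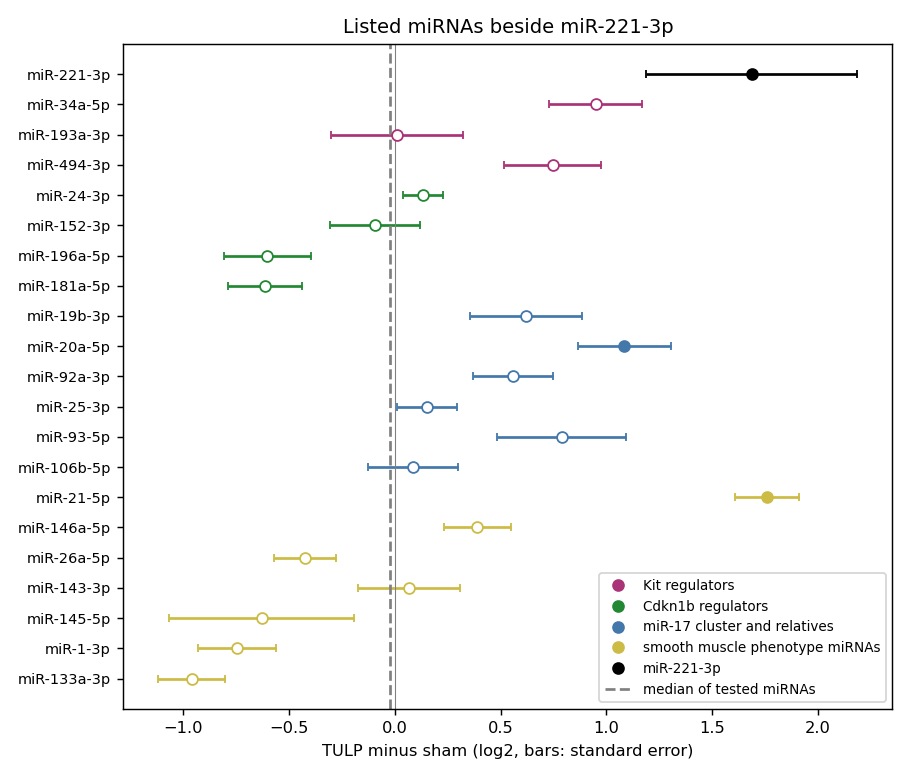
TULP minus sham difference on the log2 scale of miR-221-3p and of the tested members of the 4 lists, with bars for the standard error, filled points for called miRNAs and a dashed line for the median of all 151 tested miRNAs at -0.02. miR-221-3p (1.69) carries the longest bar (0.50), and miR-21-5p (1.76) and miR-20a-5p (1.08) are the called list members.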

How the data were processed

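miRNAs were measured on 1-colour Agilent arrays, 1 array for each of 4 sham and 4 TULP animals. Per the labels, the authors' scanner files came from Agilent Feature Extraction 10.7.1.1. The deposited intensity columns hold a background-subtracted total and error per probe, and the deposited flags mark spots well above background and outlier spots. The deposited log2 table holds the authors' quantile-normalized signals.

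Here each miRNA's signal was recomputed by adding up the totals of probes above 3 times their error (0.1 where no probe was). This was done because the stored total of miR-221-3p far exceeded that sum on arrays with 1 detected probe. On sham replicate 4 it was 318 against 4.19. The stored totals were kept as an alternative only. Signals of 758 rat miRNAs were quantile normalized, floored at the median over arrays of the lowest detected signal (1.94) and put on the log2 scale. The 151 miRNAs detected on at least 4 of 8 arrays entered a fit in limma (version 3.58.1, R version 4.3.3), with a call at a Benjamini-Hochberg adjusted p under 0.05 and over 2-fold. The fit was tried on simulated log2 values with known changes. These held no floor and no missed probes, so they do not cover signals near background such as those of miR-221-3p. Every strand of the pair, the 5 miRNAs most like miR-221-3p, miRNAs of the same seed or within 10 kb, and the called members of the lists with up to 3 others each were named. The pair, the lists and the tests were chosen with earlier results of these data known. The number of arrays limits the precision. Alternatives covered the signal, scaling, background, floor, filter, blocks and leaving out each array. Probe sequences came from the scanner files, and mature sequences and positions from RefSeq (GRCr8). Probe totals of 0 or less have no log2 value, so the 5p strands are given on the linear scale.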

Additional observations from a re-analysis of the deposited data

Results flagged for a closer look

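On TULP replicate 2 the normalized log2 signal of miR-221-3p was 4.03, set apart from the other 3 TULP arrays by 0.902 of the group's range. This lay beyond Dixon's critical value for 4 samples. The signal there added 2 counted probes (14.04), while the other 3 TULP arrays had 1 counted probe each (7.67, 7.49 and 7.19). The probe totals and probe sums of the TULP arrays were not flagged. On sham replicate 3 the longer miR-221-3p probe was 5.10, set apart from the other 3 sham arrays by 0.906 of the range. These were 2 of 28 groups examined, and chance sets apart about 1 in 20.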

How the results depend on the processing

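The miR-221-3p difference of 1.69 kept its direction under all 29 alternatives run and moved by less than the spread between arrays in 21. It was 0.82 with the spike-ins, 3.29 in the deposited table, 0.12 with the offset background, 0.82 and 0.56 with the longer and the shorter probe alone, 0.72 and 0.49 for probe sums unscaled and scaled to spike-ins, and 2.499 in slide row 1. It ranged from 1.38 to 2.09 when each array was left out. miR-221-3p passed both thresholds in 6 of the 22 alternatives that tested it. The normalized difference of miR-222-3p was 0.00, and the strand lay below the detection limit on every array. Its differences under other settings are a record only, and no fold is read from them. For miR-222-3p the offset background gave 0.0177, and the longer and shorter probe 0.52 and 0.69. Its probe sums gave 0.64 unscaled, 0.42 scaled to spike-ins and 1.16 scaled to the 75th percentile. The offset background gave 0.0147 for miR-221-5p and 0.0185 for miR-222-5p, and leaving out arrays left 0.00 for these 3 strands. The within-array shift of miR-222-3p minus miR-221-3p was -0.82 with spike-ins, -3.29 in the deposited table and -0.11 with the offset background. It was -0.30 for the brightest probes and -0.076 for probe sums, and -2.09 to -1.38 with an array left out. With miR-222-3p below its limit, nothing about the pair is read from these shifts.

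The number of called miRNAs was 34 without normalization, 53 with spike-ins, 1 with the offset background and 8 among miRNAs detected on all arrays, and 9 to 21 with an array left out (9 without TULP replicate 3 and 21 without TULP replicate 1). Calls higher in TULP were 8 of 14, against 5 of 34 without normalization, 5 of 53 with spike-ins, 5 of 12 with stored totals and 6 of 14 in the deposited table. The methods' t-test called 18, and 12 after Benjamini-Hochberg adjustment. The Kit list's median was -0.15 with stored totals, 0.36 without normalization and 0.13 with spike-ins (0.60 to 0.85 with an array left out). The Cdkn1b list's was -0.12, -0.83 and -1.06 (-0.48 to -0.24). The miR-17 list's was 0.0434 without normalization and -0.19 with spike-ins (0.48 to 0.65). The smooth muscle list's was -0.0361, -0.89 and -1.12 (-0.52 to -0.26). The 4 lists had 3, 4, 6 and 7 members tested. Members called over the lists were 2, but 1 with stored totals, 5 without normalization and 7 with spike-ins. With an array left out they were 1 to 3. Of all 151 tested miRNAs 14 were called, and 12 with stored totals, 34 without normalization and 53 with spike-ins. Nothing about the lists is read from these counts. The median of all tested miRNAs was -0.78 with spike-ins and -0.55 without normalization.

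With the replicate number as a block 11 miRNAs were called, and with the slide row as a block 11. miR-221-3p, at 1.69 and 1.84, was called in neither. Same-numbered arrays had correlations of deviations of 0.13, -0.10, 0.27 and -0.10, so the numbers do not pair the animals. The 75th percentile over all rat miRNAs was 0.1 on every array and gave no scale. Lower probe limits, probe sums and single slide rows were chosen after seeing the data. The causes of these differences were not tested. Signal over background limits all 4 strands.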
